A study of Mus musculus with 6 samples.

Results

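Heat shock proteins and chaperones were examined in the ganglion cell layer of the mouse retina 6 hrs after optic nerve crush. Genes were chosen by symbol and took in the Hsp70, Hsp110, Hsp90 and small heat shock protein families, the mitochondrial and cytosolic chaperonins, the J-proteins, the BAG proteins and the heat shock factors. The array carried 87 such genes, of which 79 were measured, that is, had a probe set with a mean intensity of at least 40 over the 6 arrays, and these are 79 of 15103 measured genes with a symbol. Each gene is represented by its brightest probe set. The crush group was 3 injured eyes of male C57BL/6J mice, whose optic nerve had been squeezed with forceps, and the control group was 3 uninjured contralateral eyes, paired by eye number. From each eye about 6000 cells of the ganglion cell layer were cut out by laser from frozen sections, their RNA was amplified, and the product was hybridized to 1 Affymetrix mouse 430 2.0 array. Glia, blood vessels and other neurons such as amacrine cells reach into this layer, so the values are not those of retinal ganglion cells (RGCs) alone.

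Chaperones bind proteins that are not folded and help them reach or regain their shape. Hsp70 does this in cycles of ATP binding, which J-proteins start by stimulating its ATPase and which BAG proteins, Hsp110 and other exchange factors reset, and Hsp90 finishes the folding of many kinases and receptors. Under heat and other protein-damaging stress, heat shock factors bind heat shock elements in the promoters of Hspa1a, Hspa1b, Dnajb1, Hsph1, Hspb1 and others and raise their transcription, while misfolded protein in the endoplasmic reticulum (ER) raises Hspa5, Hsp90b1 and Dnajc3 through ER stress elements. Most other members, such as Hspa8 and the chaperonin ring, are made in every cell.

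From these 2 groups of inducible genes the promoters of Hspa1a, Hspa1b, Hspa5, Hsp90b1 and Dnajc3 are shown, with that of Hspe1. Heat shock or ER stress is known to act on these genes through them. The promoters of Dnajb1, Hsph1 and Hspb1 are not shown. Sequences are from RefSeq on GRCm38.p6, 5′ to 3′ on the gene's strand, and end just before the annotated start unless a position is given. Motifs were searched on both strands in the 250 bases before the start, a window that 65 of the 79 genes had. Hspa1a (chr17:34972157-34972406, minus strand) and Hspa1b (chr17:34959239-34959488, minus strand) are neighbours and share 247 of 250 bases there. Capitals mark GAANNTTC, a pair of heat shock element units, which 13 of the 65 genes (20.0%) and 7.73% of 27025 genes had in the same window. The 13 count Hspa1a and Hspa1b, and likewise Hspd1 and Hspe1, as separate genes. The pair in the other orientation, TTCNNGAA, was found before 7 of the 65 genes (10.8%) and before 8.11% of all genes. The Hspe1 stretch (chr1:55087998-55088147, plus strand) lies between Hspe1 and its neighbour Hspd1, which run in opposite directions. Its capitals cover 2 overlapping matches, 1 on each strand, to GAANNTTCNNGAA, the element of 3 units, which holds both GAANNTTC and TTCNNGAA. That element was found before Dnajb6, Hspd1 and Hspe1 and before 0.514% of all genes.
Hspa1a promoter: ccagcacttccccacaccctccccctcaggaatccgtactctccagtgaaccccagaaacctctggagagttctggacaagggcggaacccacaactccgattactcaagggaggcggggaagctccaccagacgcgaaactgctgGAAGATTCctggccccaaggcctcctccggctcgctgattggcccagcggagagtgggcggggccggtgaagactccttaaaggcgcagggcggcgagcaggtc
Hspa1b promoter: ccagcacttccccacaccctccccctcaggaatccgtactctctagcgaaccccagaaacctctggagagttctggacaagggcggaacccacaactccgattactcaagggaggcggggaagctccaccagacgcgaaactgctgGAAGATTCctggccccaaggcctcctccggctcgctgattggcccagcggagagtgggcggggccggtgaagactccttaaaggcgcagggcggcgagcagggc
Hspe1 promoter: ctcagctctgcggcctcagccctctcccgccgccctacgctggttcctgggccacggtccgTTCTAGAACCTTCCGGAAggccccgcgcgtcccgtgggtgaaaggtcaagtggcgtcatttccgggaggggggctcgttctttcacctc
In the next set capitals mark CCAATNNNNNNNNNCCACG, the ER stress element. It was found before 3 of the 65 genes, namely Hspa5 (chr2:34771990-34772089, plus strand), Hsp90b1 (chr10:86705515-86705674, minus strand, bases -230 to -71 from the start) and Dnajc3 (chr14:118937782-118937881, plus strand, bases -150 to -51), and before 0.130% of all genes. Dnajc1 (chr2:18392831-18393080, minus strand), also a protein of the ER, had no match to any of these motifs and is given as the member with the largest positive difference below.
Hspa5 promoter: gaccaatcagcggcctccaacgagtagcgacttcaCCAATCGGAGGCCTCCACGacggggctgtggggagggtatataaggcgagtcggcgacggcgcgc
Hsp90b1 promoter: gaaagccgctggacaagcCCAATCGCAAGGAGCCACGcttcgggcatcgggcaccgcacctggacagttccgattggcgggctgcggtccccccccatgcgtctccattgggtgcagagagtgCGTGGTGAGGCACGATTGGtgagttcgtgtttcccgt
Dnajc3 promoter: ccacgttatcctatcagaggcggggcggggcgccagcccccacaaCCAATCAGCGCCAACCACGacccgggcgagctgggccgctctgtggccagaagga
Dnajc1 promoter: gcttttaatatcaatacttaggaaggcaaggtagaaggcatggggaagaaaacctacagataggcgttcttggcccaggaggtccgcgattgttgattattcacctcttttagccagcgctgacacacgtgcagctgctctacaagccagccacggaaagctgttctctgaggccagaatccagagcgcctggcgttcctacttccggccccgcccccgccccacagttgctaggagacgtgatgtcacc

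The arrays of crush eyes 2 and 3 stood apart from the other 4. Of the 33169 probe sets tested, 34.6% were lowest on the array of crush eye 2, and 29.2% were highest on that of crush eye 3. Median intensities were 131 to 154 arbitrary units on the crush arrays and 141 to 143 on the control arrays. Ratios of 3′ to 5′ signal, a measure of RNA shortening, were 7.21 to 10.5 in crush eyes and 6.65 to 8.80 in control eyes for actin, and 4.62 to 7.54 in crush eyes and 5.13 to 6.60 in control eyes for Gapdh. RGC markers were present, with summed intensities of 55232 to 69407 in crush eyes and 62179 to 64068 in control eyes over 12 measured genes. Photoreceptor RNA was present as well, and the 9 measured rod markers summed to 45769 to 52246 in crush eyes and 33156 to 58138 in control eyes. Pou4f2 was not measured here. In captured tissue, fewer cells of a type and less RNA per cell cannot be told apart.

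Chaperone genes differed little between crushed and control eyes. In limma with eye number as a block, which compares each crushed eye with its control, 1 of the 79 genes, Dnajc1, was higher and 1, Cct6b, was lower with an unadjusted p under 0.05, which is 1.27% in each direction. Of all tested probe sets 5.16% were up and 2.51% down at that level (7.68% in all). With 1 gene in each direction, the counts are too small to set apart from these shares. The smallest adjusted p among the chaperones was 0.642 from limma, which was also the smallest over all probe sets, and 0 of 33169 passed an adjusted p under 0.05, against 2546 at an unadjusted p under 0.05. Differences from limma ran from -0.77 to 0.72 on the log2 scale, and 64 of 79 genes lay within 0.25 of no change, where 67.6% of all probe sets did. For 75 of 79 genes the 95% interval of the difference stayed within 1 on the log2 scale on either side, that is, a doubling or a fall by the same factor, against 86.2% of all probe sets. The other 4 were Bag5, Cct6b, Dnajb3 and Dnajc1. Each of the 79 genes is given by its brightest probe set, whereas all tested probe sets include dimmer ones and several of the same gene. Shares of the 79 genes, here and below, are thus set beside those of an unlike set. The median distance from estimate to interval limit was 0.40 on the log2 scale. The p values and intervals draw on the spread between these 3 pairs of eyes and on a spread that limma pools over all tested probe sets. They do not measure the spread of a gene's own 3 pairs alone.

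More chaperone genes were lower than higher, most of all in pair 2. Of the 79 genes 20 had a positive and 59 a negative difference, or 74.7% negative against 51.1% of all probe sets, and the median log2 difference was -0.06 against -0.01 over all probe sets. The pairs, in order, had medians of 0.02, -0.18 and -0.03, beside 0.02, -0.08 and 0.07 over all probe sets. Crush eye 2 had the lowest of the 6 values for 39 of 79 genes (49.4%). Without pair 2 the split was 37 positive and 42 negative (53.2%, where 40.7% of all probe sets were negative), with a median of -0.01 against 0.04 over all probe sets. Marker genes of several cell types were read in the same way. At an unadjusted p under 0.05 from limma, 0 RGC and 0 amacrine cell markers passed. At that level 1 Muller cell and 1 bipolar cell marker were lower and 2 astrocyte markers higher (5.16% of all probe sets were higher and 2.51% lower). Microglia markers were positive for 5 of 6 genes (median 0.15) and endothelial markers for 3 of 5 (median 0.08), with 0 past that level. Amacrine cell markers had pair medians of -0.08, -0.43 and 0.07 with 7 of 8 negative over the 3 pairs, and RGC markers 0.20, -0.25 and -0.11 with 8 of 12 negative. Muller cell markers were negative for 8 of 8 genes (median -0.18) and bipolar cell markers for 5 of 5 (median -0.09), while astrocyte markers were positive for 3 of 3 (median 0.40, with Gfap at 0.85). Amacrine cell markers summed to 30868 to 35264 in crush eyes and 34464 to 39496 in control eyes, and Muller cell markers to 39935 to 42349 in crush eyes and 41814 to 46790.2 in control eyes. For bipolar cells the sums were 9356 to 10277 in crush eyes and 10568 to 12767 in control eyes, and for astrocytes 5766 to 6737 in crush eyes and 4683 to 5773 in control eyes. The part of these cells in the chaperone values was not tested. In all 3 pairs 5 genes were higher (6.33%, where 17.6% of all probe sets were), namely Dnajb5, Dnajc1, Dnajc14, Dnajc16 and Hspa14, and 11 were lower (13.9%, where 14.2% of all probe sets were). Values of the crush and control groups did not overlap for 3 higher genes (3.80%, background 7.29%), Dnajc1, Dnajc16 and Hspa14, and for 2 lower genes (2.53%, background 5.25%), Cct6b and Dnajc12.

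**Figure D1:**
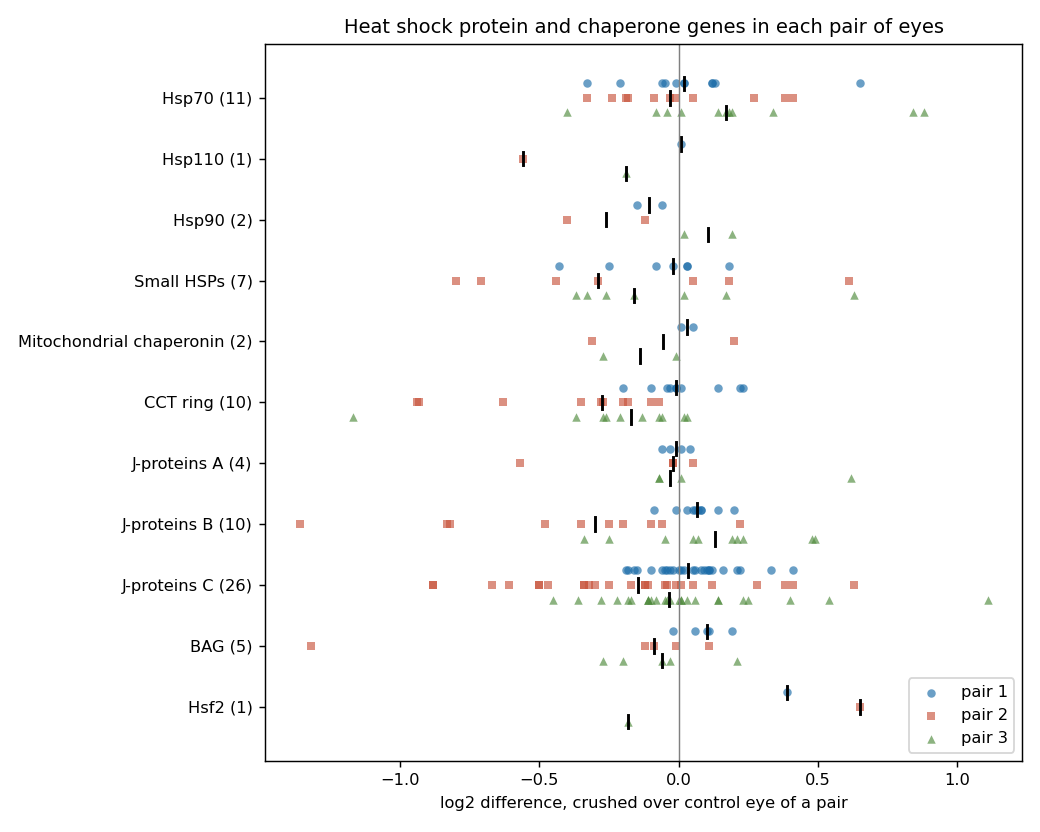
Log2 difference of the crushed over the control eye in each of 3 pairs for the 79 measured genes, by family, with the number of genes in brackets; each point is 1 gene in 1 pair and black bars are the median of the family in that pair. The median of pair 2 (squares) lies furthest to the left in most families, with a median of -0.18 over all 79 genes, against 0.02 in pair 1 and -0.03 in pair 3.

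Among the Hsp70 family, the ATP-driven core of the system, 6 of 11 measured genes had a positive and 5 a negative difference, 0 passed an unadjusted p under 0.05, and the median was 0.07. Without pair 3 the median was -0.03. Hspa8, the constitutive cytosolic Hsp70, had intensities of 13576, 12871 and 13252 in crush eyes 1 to 3 and of 13358, 13175 and 13186 in control eyes 1 to 3. These values overlapped and gave a log2 difference of 0.00 with a 95% interval of -0.34 to 0.34 from limma. Its 3 other tested probe sets had differences of -0.08, -0.07 and 0.08.

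The inducible pair, Hspa1a and Hspa1b, was higher after crush in pairs 2 and 3 and lower in pair 1. Both ranked the arrays in the same order, and whether their probe sets tell the transcripts apart was not tested. Hspa1a had 1374, 1244 and 1509.9 in crush eyes 1 to 3, against 1587, 953 and 846 in control eyes 1 to 3. Hspa1b had 2641, 2278 and 2889 in crush eyes and 3324, 1890.3 and 1564 in control eyes. The crush eyes thus lay within the range of the controls, which spread more widely than they did. Log2 differences by pair were -0.21, 0.38 and 0.84 for Hspa1a and -0.33, 0.27 and 0.88 for Hspa1b. The fitted difference was 0.34 (95% interval -0.24 to 0.92, unadjusted p = 0.197, adjusted p = 0.696 from limma) for Hspa1a. It was 0.27 (-0.37 to 0.92, unadjusted p = 0.328 from limma) for Hspa1b, and the 2 other Hspa1b probe sets both gave 0.30. The size of these differences rested on the pairs included. Without pair 3 Hspa1a had 0.09 and Hspa1b -0.03, and without pair 1 they had 0.61 and 0.58, with unadjusted p = 0.0523 and 0.0768 from limma. Rod markers followed the same pairs. Their summed intensity was 52246, 45769 and 51459 in crush eyes 1 to 3 and 58138, 43952 and 33156 in control eyes 1 to 3, their median log2 differences were -0.24, 0.19 and 0.92 in pairs 1 to 3, and 9 of 9 measured rod genes had a positive fitted difference. Control eye 1 was highest and control eye 3 lowest in these sums as in both Hspa1 genes, and their part in the Hspa1 values was not tested.

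**Figure D2:**
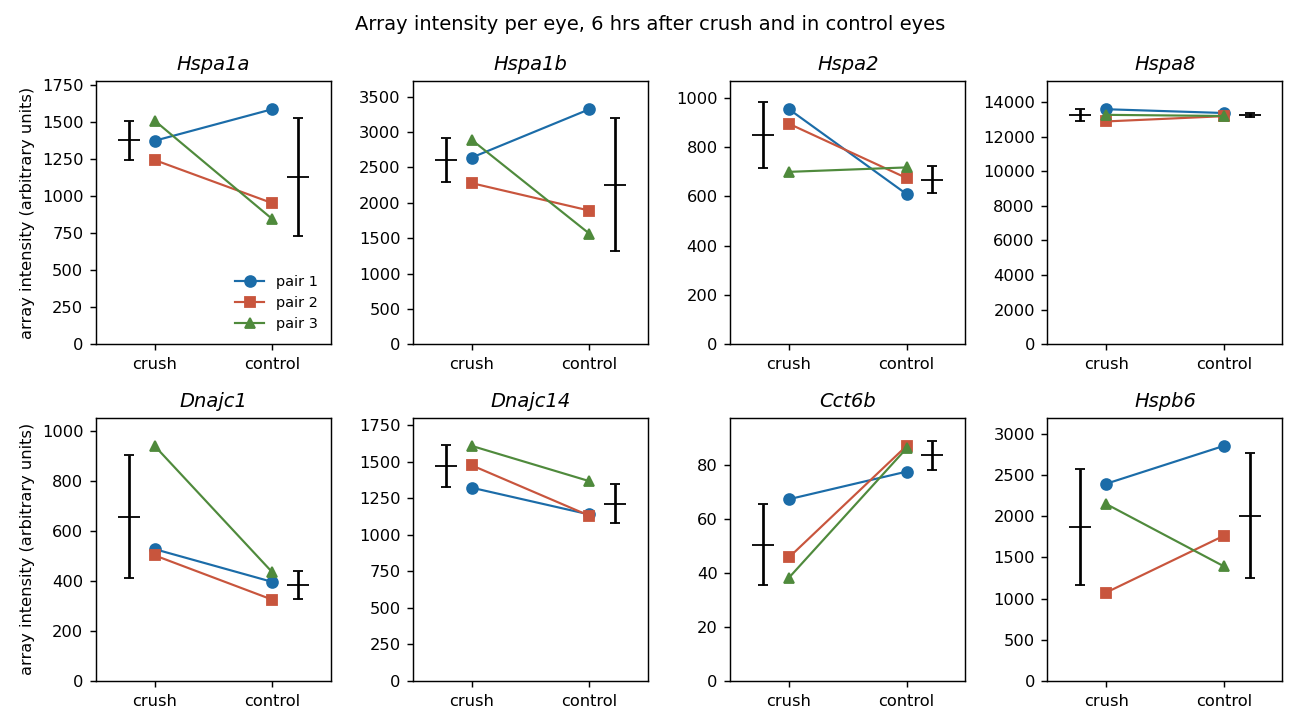
Array intensity in arbitrary units in each eye for 8 genes, crush on the left and control on the right of each panel, with lines joining the eyes of a pair and bars giving mean ± SD of 3 eyes. Hspa8 is nearly level, Hspa1a and Hspa1b are lower in the crushed eye of pair 1 and higher in those of pairs 2 and 3, and groups do not overlap for Dnajc1 (502 to 939.6 in crush eyes, 325 to 435 in control eyes) and Cct6b.

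Hspa2, an Hsp70 best known from the testis, had 953, 894 and 699 in crush eyes and 609, 674 and 717 in control eyes, with pair differences of 0.65, 0.41 and -0.04 on the log2 scale. Its fitted difference of 0.34 had a 95% interval of -0.12 to 0.80 (unadjusted p = 0.117 from limma). Hspa14, an Hsp70 that works at the ribosome, had 1855, 1859 and 1983 in crush eyes and 1689.8, 1797 and 1743 in control eyes. It was higher in each pair without overlap of the groups, but by only 0.12 on the log2 scale (95% interval -0.22 to 0.46). Hspa5, or BiP, the Hsp70 of the ER, had 5139, 4448 and 4092 in crush eyes and 5166, 5268 and 4329 in control eyes. Its log2 difference was negative in each pair, with a fitted value of -0.11 (-0.46 to 0.24), while its other probe sets had 0.09 and -0.09. Hspa9, the mitochondrial Hsp70, had -0.02 and Hspa13, a small ER relative, 0.10. The exchange factors Hspa4 and Hspa4l had -0.06 and 0.07, and Hspa12a, a distant relative expressed in brain, -0.15.

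Hsph1, the inducible Hsp110, which returns Hsp70 to its ATP form and dissolves aggregates with it, had 2847, 1741 and 2196 in crush eyes and 2819, 2562 and 2506 in control eyes. Crush eye 2 was the lowest, and the fitted log2 difference was -0.24 with an interval of -0.67 to 0.18. Hsp90aa1, the inducible cytosolic Hsp90, had 10632, 9733 and 10265 in crush eyes and 11069, 10581 and 10144 in control eyes, a log2 difference of -0.05 (-0.40 to 0.29). Hsp90b1, or Grp94, the Hsp90 of the ER, had 3267, 2641 and 3306 in crush eyes and 3619, 3487 and 2903 in control eyes, and a difference of -0.12 (-0.55 to 0.31). Hsp90ab1 was not analysed here.

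Small heat shock proteins hold unfolding proteins in soluble complexes without using ATP. Of 7 measured genes 1 had a positive and 6 a negative difference, with a median of -0.11 and 0 past an unadjusted p under 0.05. Hspb1, or Hsp25, had 757, 447 and 797 in crush eyes and 742, 605 and 788 in control eyes, so that pairs 1 and 3 were level (0.03 and 0.02 on the log2 scale) and pair 2 was lower (-0.44). Hspb6, or Hsp20, varied most between eyes, with 2393, 1073 and 2147 in crush eyes and 2852, 1761 and 1392 in control eyes. It was lower in pairs 1 and 2 (-0.25 and -0.71) and higher in pair 3 (0.63), and its interval reached from -0.81 to 0.59. Hspb8, the partner of Bag3 in chaperone-assisted autophagy, had 3515, 3841 and 3078 in crush eyes and 3106, 3379 and 3873 in control eyes, a difference of 0.01. Hspb11, a component of intraflagellar transport, had -0.05, and the muscle-enriched Hspb2, Hspb3 and Hspb7 were dim, with means of 50.9 to 109.9 over the 6 arrays and differences of -0.23 to -0.02.

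Cryab, the α-crystallin that belongs to the small heat shock family but not to the symbols chosen, was lower after crush in each pair. It had 4199, 1566 and 2727 in crush eyes and 7369, 3214 and 2965 in control eyes, a log2 difference of -0.66 (SE 0.22, unadjusted p = 0.0269 and adjusted p = 0.642 from limma). The 4 other measured lens markers also had negative differences, 1 of them with an unadjusted p under 0.05 from limma (Crygs), although Cryaa and Cryba1 were higher in pair 3. They summed to 701 to 5843 in crush eyes and 1226 to 7646 in control eyes, and Crygd was not measured. The part of lens RNA in the Cryab value was not tested.

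Hspd1 (Hsp60) and its lid Hspe1 (Hsp10), which form the chaperonin of mitochondria, had differences of -0.10 and -0.01 with intervals of -0.47 to 0.27 and -0.41 to 0.39. Hspd1 had 5231, 4450.1 and 4385 in crush eyes and 5204, 5506 and 4413 in control eyes. Hspe1 had 2308, 2477 and 2035 in crush eyes and 2236, 2159 and 2451 in control eyes. These genes share the stretch with the 3-unit heat shock element shown above. In pair 2 their brightest probe sets gave -0.31 for Hspd1 and 0.20 for Hspe1. A dim second probe set of Hspe1 had 148, 109.8 and 150.3 in crush eyes and 179.9, 179 and 178 in control eyes. It was lower without overlap, by -0.41 on the log2 scale (95% interval -0.82 to -0.01, unadjusted p = 0.0479 and adjusted p = 0.642 from limma), against -0.01 from the brightest probe set. In pair 2 this dim probe set gave -0.70, in the same direction as Hspd1.

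The cytosolic chaperonin, called CCT or TRiC, is a double ring that folds actin and tubulin. All 8 genes of its subunits (Tcp1 and Cct2 to Cct8, with Cct6a) had a negative difference, from -0.34 to -0.06, with a median of -0.12, and 0 of the 8 passed an unadjusted p under 0.05 from limma. By pair the medians were -0.01, -0.27 and -0.10, with 5, 8 and 6 of 8 subunits lower. Without pair 2, 6 of 8 were negative and the median was -0.05 (0.04 over all probe sets), and without pair 3 it was 7 of 8 and -0.15. With the dimmest tested probe set of each gene in place of the brightest, 8 of 8 were negative. Tcp1, Cct5 and Cct8 had 1 tested probe set each, so their values could not change in this comparison. Other probe sets did not all run that way, and 4 of the 7 tested for Cct4 were positive, over a range of -0.24 to 0.17. The subunits are not independent of each other, since they share the eyes and stand together in 1 complex.

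Cct5 had 4067, 2829 and 2984 in crush eyes and 4373, 4367 and 3597 in control eyes. It was lower in each pair and had a log2 difference of -0.33 (95% interval -0.75 to 0.08, unadjusted p = 0.0935 and adjusted p = 0.648 from limma). Tcp1, the α subunit, had 6159, 5118 and 5047 in crush eyes and 6274, 6508 and 5285 in control eyes, a difference of -0.15 (-0.52 to 0.22). Cct8 had 1465, 813 and 682 in crush eyes and 1326, 1560.0 and 789.9 in control eyes. Here the spread within each group was wide, and the difference of -0.34 had an interval of -0.94 to 0.27. The intensities of Cct2, Cct3, Cct4, Cct6a and Cct7 differed by -0.12 to -0.06 on the log2 scale.

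Cct6b, a form of the ζ subunit known from the testis, was the single chaperone gene lower at an unadjusted p under 0.05. It was dim, with 67.2, 45.7 and 38.2 in crush eyes and 77.4, 86.9 and 86.0 in control eyes. The groups did not overlap, and the difference was -0.77 (SE 0.22, 95% interval -1.33 to -0.20, unadjusted p = 0.0171 and adjusted p = 0.642 from limma). Its pair differences were -0.20, -0.93 and -1.17 on the log2 scale. Cct8l1, a gene like Cct8, had -0.04.

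J-proteins bring clients to Hsp70 and were the largest group, with 40 measured genes in the classes A, B and C. In class A, Dnaja1 and Dnaja2, cytosolic partners of Hspa8, had log2 differences of 0.01 and -0.21, the mitochondrial Dnaja3 had -0.02 and Dnaja4 0.19. In class B, 2 of 10 genes had a positive and 8 a negative difference, with a median of -0.05, and this turned with pair 2. In that pair 9 of 10 were lower and the median was -0.30, whereas pairs 1 and 3 had medians of 0.06 and 0.13, and without pair 2 the split was 7 positive and 3 negative. Dnajb1, the inducible Hsp40, had 4618, 3477 and 5069.9 in crush eyes and 4357, 4434 and 4436 in control eyes, a difference of -0.02 (95% interval -0.45 to 0.40). Its 3 control values were nearly alike and the 3 crush values lay on both sides of them. A dimmer probe set of Dnajb1 had 313, 288 and 317 in crush eyes and 276, 257 and 272 in control eyes. That probe set was higher in each pair without overlap (0.19, -0.15 to 0.52). Dnajb5 was higher in each pair with 1733, 2353 and 2286 in crush eyes and 1658, 2027 and 1952 in control eyes, though the groups overlapped (0.17, -0.18 to 0.51). Dnajb2, a neuronal J-protein that sorts clients to the proteasome, had -0.03, and Dnajb9, a J-protein of the ER, -0.16. The most negative of the class was the dim Dnajb3, with 62.9, 35.3 and 44.0 in crush eyes and 61.6, 90.4 and 55.5 in control eyes (-0.55, -1.28 to 0.18). Dnajb6, with a 3-unit heat shock element, had -0.14 from its brightest probe set and 0.16 from the next.

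In class C, 6 of 26 genes had a positive and 20 a negative difference, with a median of -0.06 and pair medians of 0.03, -0.15 and -0.03. Dnajc1 spans the ER membrane and recruits BiP near the exit of the ribosome. It was the single chaperone gene higher at an unadjusted p under 0.05, with intensities of 527, 502 and 939.6 in crush eyes and 396, 325 and 435 in control eyes. Every crush eye was above every control eye, and crush eye 3 stood far above the rest. Its mean was 656 ± 246 in crush eyes and 385 ± 55.5 in control eyes (SD, 3 eyes each), a ratio of 1.70. The fitted log2 difference was 0.72 (SE 0.18, 95% interval 0.25 to 1.18, unadjusted p = 0.0104 and adjusted p = 0.642 from limma), and the pairs gave 0.41, 0.63 and 1.11. Without pair 3 it was 0.52 (unadjusted p = 0.0511 from limma). Dnajc1 was also the single chaperone gene, of the 79, that met the study's criteria of a ratio of group means over 1.2, a difference of group means over 80 and an unadjusted p under 0.05, here from limma (1.27%, where 2.58% of all probe sets met them upward and 0.543% downward). With the methods' t-test in place of limma it was not called, and Dnajc14 was.

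Other probe sets of Dnajc1 were higher to a lesser degree. That with a mean intensity of 236 had 258, 219 and 379 in crush eyes and 201, 154 and 205 in control eyes, again without overlap (0.58, unadjusted p = 0.0151 and adjusted p = 0.642 from limma). The probe sets with means of 269 and 162 had 0.35 and 0.20 and were not past that level, and the brighter of these was lower in pair 1.

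**Figure D3:**
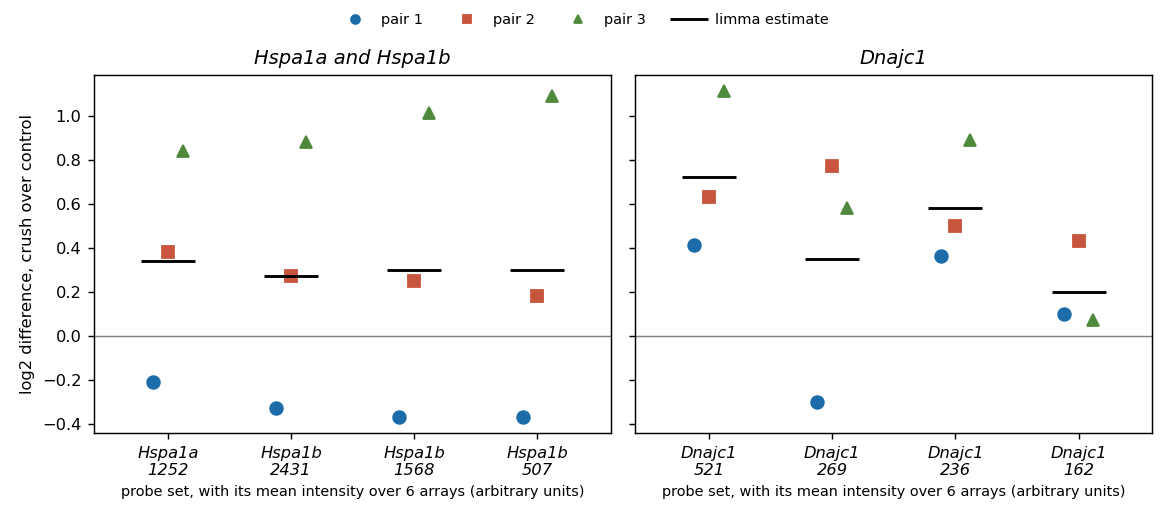
Log2 difference of the crushed over the control eye in each pair (symbols) and the limma estimate (black bars) for each tested probe set of Hspa1a and Hspa1b (left) and Dnajc1 (right), labelled with its mean intensity in arbitrary units. The 4 Hspa1 probe sets show the same spread of pairs, with estimates of 0.27 to 0.34, while the Dnajc1 probe sets run from 0.20 to 0.72.

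Dnajc14, which helps dopamine receptors leave the ER, had 1322, 1475 and 1608 in crush eyes and 1139, 1130.3 and 1367 in control eyes. It was higher in each pair by 0.21, 0.38 and 0.23 on the log2 scale, with a fitted 0.28 (95% interval -0.07 to 0.62, unadjusted p = 0.0949 and adjusted p = 0.648 from limma). Its other tested probe sets had -0.10 and 0.19, and neither was higher in every pair. Dnajc16 had 1311, 1303 and 1345 in crush eyes and 1124, 1295 and 923 in control eyes (0.26, -0.16 to 0.67), and in pair 2 its 2 eyes were nearly equal. The other probe set of Dnajc16 had -0.07. Dnajc12, known as a partner of the aromatic amino acid hydroxylases, had 2386, 2374 and 2313 in crush eyes and 2665, 3001 and 2499 in control eyes, lower without overlap (-0.20, -0.56 to 0.15). Dnajc5, the cysteine string protein that guards SNARE proteins at synapses, had -0.07 from its brightest probe set, with an interval of -0.40 to 0.27. Its other tested probe sets disagreed, with 0.17, -0.23, -0.14 and 0.46. Those at 0.17 and 0.46 were higher in each pair, the former without overlap, and that at -0.23 was lower in each pair. Dnajc6, or auxilin, which strips clathrin from vesicles in neurons, had -0.11 from its brightest probe set. A dim probe set of Dnajc6 went the other way, with 119, 143 and 182 in crush eyes and 109, 83.5 and 88.9 in control eyes (0.65, unadjusted p = 0.0267 and adjusted p = 0.642 from limma), and another dim one had -0.34. Dnajc9, a chaperone of histones, had 3189, 2103 and 2718 in crush eyes and 3284, 3204 and 2925 in control eyes and was lower in each pair (-0.25, -0.69 to 0.18). Dnajc3 and Dnajc10, which work inside the ER, had 0.04 and -0.07. The 3 with an ER stress element, Hspa5, Hsp90b1 and Dnajc3, lay between -0.12 and 0.04.

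BAG proteins release nucleotide from Hsp70 and tie it to other pathways. Bag1, which also binds the proteasome, had 3382, 2886 and 3012 in crush eyes and 3132, 3129.6 and 3643 in control eyes (-0.09, 95% interval -0.47 to 0.29). Bag2 was lower in each pair but by only -0.05. Bag4, which keeps TNF receptor 1 silent, had 1114, 1303 and 1049 in crush eyes and 1043, 1209 and 1095 in control eyes (0.05, -0.30 to 0.39). Bag5 had 576, 230.2 and 284 in crush eyes and 505, 576 and 326 in control eyes. Its difference of -0.44 came mainly from pair 2, at -1.32 on the log2 scale, and its interval was -1.23 to 0.34. Bag6, which guards membrane proteins on their way to the ER, had 0.09. Bag3, the stress-induced member, was not measured, with a mean of 9.37. Of the heat shock factors, Hsf2 was dim, with 100.2, 129.5 and 75.9 in crush eyes and 76.6, 82.8 and 86.0 in control eyes. Crush eyes 1 and 2 were above the controls and crush eye 3 was below them (0.28, -0.23 to 0.79). Hsf1 was not analysed here.

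**Figure D4:**
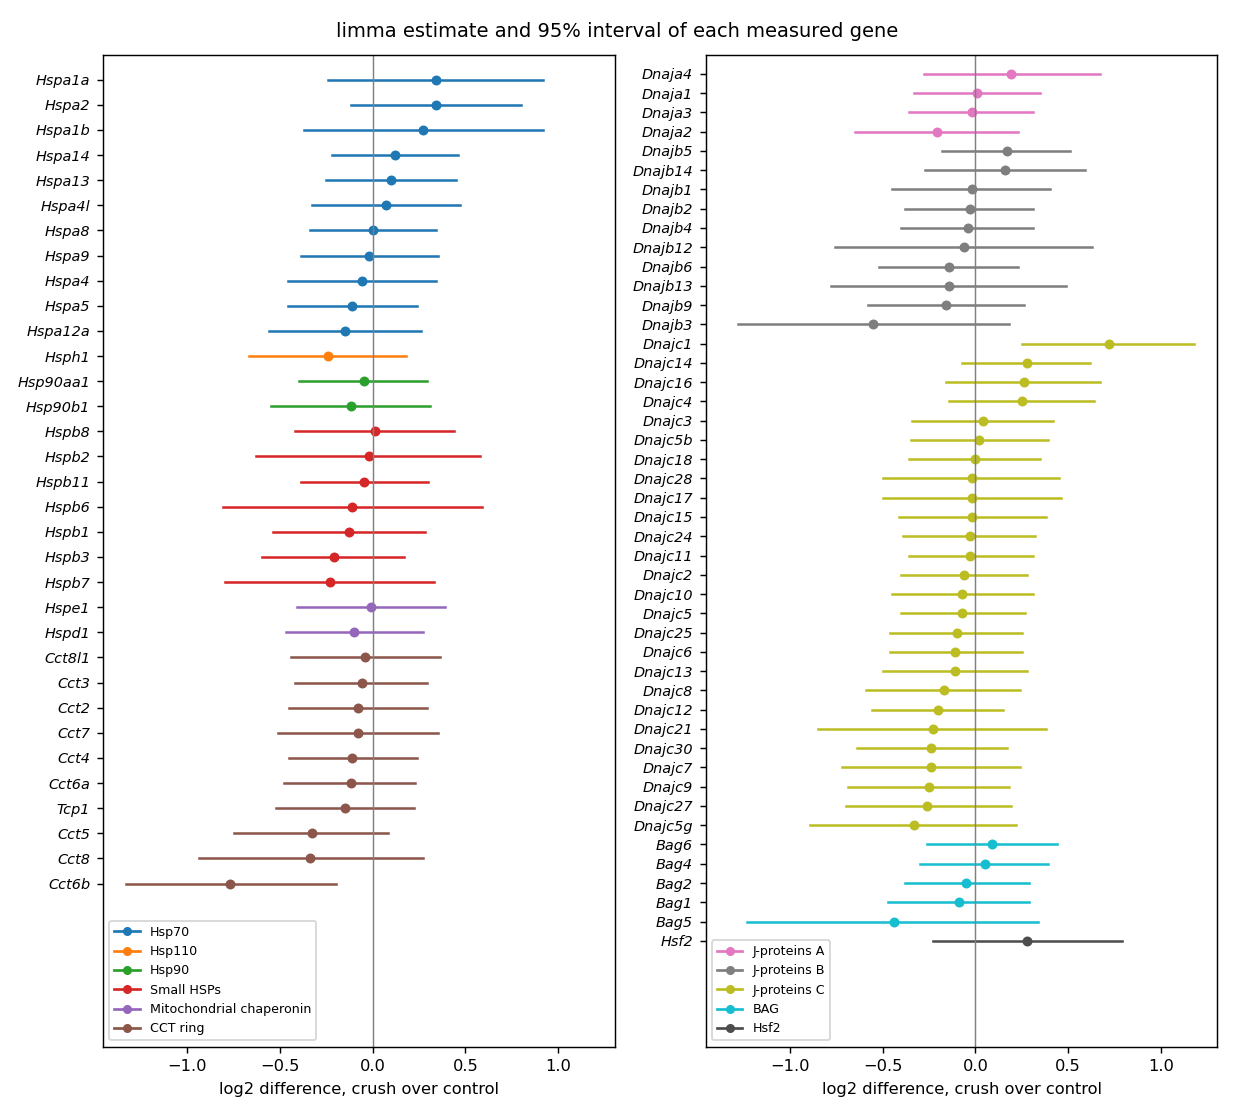
Limma estimate (points) and 95% interval (lines) of the log2 difference, crush over control, for each of the 79 measured genes, coloured by family and ordered by size within it. Intervals of Dnajc1 (0.25 to 1.18) and Cct6b (-1.33 to -0.20) leave out 0, and those of the other 77 genes cross it.

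Probe sets of the same gene often disagreed in sign. Of the 79 genes 31 had 1 tested probe set and 48 had several, and where there were several, all had 1 sign for 15 genes and both signs occurred for 33. Over the 172 tested probe sets of these genes, 3 were higher at an unadjusted p under 0.05 (2 of Dnajc1 and 1 of Dnajc6), or 1.74% where 5.16% of all probe sets were, and 2 were lower (Cct6b and Hspe1), or 1.16% where 2.51% were. Just inside the minimum mean of 40 was Dnajc5g at 40.3 and just outside it Dnajb11 at 39.8. The other 6 genes that were not measured, beside Bag3 and Dnajb11, were Dnajb7, Dnajb8, Dnajc22, Hspa12b, Hspa1l and Hspb9, with means of 1.61 to 38.0.

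Partners of the chaperones outside these families had a median difference near that of all probe sets. Intervals were wide for some, as for Ttc4 (-0.62, 95% interval -1.31 to 0.08) and Pfdn1 (0.39, -0.26 to 1.04). Of 48 co-chaperone and folding genes 43 were measured, 18 with a positive and 25 with a negative difference, with a median of -0.02, and at an unadjusted p under 0.05 there was 1 higher gene and no lower one (background 5.16% and 2.51%). This was Fkbp8, a membrane-bound immunophilin of the outer mitochondrial membrane that binds Hsp90 and Bcl-2, with 2274, 2225 and 2073 in crush eyes and 1736, 1242 and 1854 in control eyes. Its groups did not overlap (0.46, 95% interval 0.01 to 0.92, unadjusted p = 0.0480 and adjusted p = 0.642 from limma). In 7 of 13 alternatives, among them both scalings of the arrays and leaving out pair 1 or pair 2, the list had 0 higher genes, and in 6 it had 1 lower gene. The 10 enzymes and helpers of folding in the ER had 1 positive and 9 negative differences with a median of -0.12, and their pair medians were -0.06, -0.37 and -0.09. The 6 genes of prefoldin, which hands actin and tubulin to CCT, had 4 positive and 2 negative differences and a median of 0.08. Of 12 genes of the unfolded protein response 11 were measured, 6 with a positive and 5 with a negative difference, and the median was 0.00. Trib3, a pseudokinase induced by Atf4 and Ddit3, was the 1 gene of this list past an unadjusted p under 0.05, and it was higher (background 5.16% higher and 2.51% lower). It had 1050.3, 954 and 1204 in crush eyes and 927, 665 and 618 in control eyes, without overlap (0.55, unadjusted p = 0.0328 and adjusted p = 0.642 from limma). The list had 0 higher genes in 6 of 13 alternatives, among them leaving out pair 2 or pair 3. Ppp1r15a, also on this list, was higher in each pair (0.30, 95% interval -0.16 to 0.77), while Asns and Sesn2 had -0.10 and -0.16. RNA of Atf4 and Ddit3, transcription factors of this response, had 0.09 and -0.15, and that of Xbp1, another of its factors, -0.09. The arrays do not measure the activity of these factors.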

How the data were processed

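Gene expression was measured on 6 arrays, 3 of crush eyes and 3 of control eyes. The deposited values are linear intensities per probe set, which the authors made in dChip 2006 with invariant set normalization and the PM/MM model. The table held 45101 probe sets, of which 64 Affymetrix controls were left out.

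A floor of 16 was applied before the log2 transform. Probe sets averaging 40 or more over the arrays, 33169 in number, entered lmFit and eBayes of limma 3.58.1 (R 4.3.3) with eye number as a block, and Benjamini-Hochberg adjustment covered all of them. A positive difference means higher after crush. The same eye number was taken to mark eyes of the same animal, since the controls are contralateral and the methods use a paired test, and residuals of same-numbered arrays correlated at 0.154, 0.125 and 0.297, against -0.264 to 0.131 for the other combinations.

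Probe sets were named through the platform annotation, in which 34945 had 1 symbol, 932 several and 9160 none. Only those with 1 symbol were used, so 3 probe sets that match the symbols but carry several were left out. Chaperone genes and lists were chosen with earlier results of these data known. Genes were named where they passed an unadjusted p under 0.05 or moved the same way in all pairs with the largest differences, where they belong to the families other than J-proteins, where a dimmer probe set or a listed partner passed that level, or where they lay next to the intensity minimum; the other J-proteins and partner genes named were chosen after their values were seen. Intensities of different probe sets are not comparable in level. The number of arrays limits the precision. Alternatives changed the block, the floor, the filter, the scaling, the prior, the test, the probe set of a gene and the pairs used.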

Additional observations from a re-analysis of the deposited data

How the results depend on the processing

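The median log2 difference of the chaperone genes stayed below 0 in every alternative run, from -0.09 to -0.01, and no single gene's called difference changed sign. Counts at an unadjusted p under 0.05 were small, and each moved by at most 1 gene. The count of higher genes, 1 in the fit reported, was 2 with a floor of 64 and with no filter on low intensity (Dnajc1 and Dnajc14), 0 with the dimmest probe set of a gene, and 0 to 1 when 1 pair was left out. The count of lower genes, also 1, was 2 with an intensity trend and robust prior (Cct5 and Cct6b) and with the dimmest probe set (Cct6b and Hspe1), 0 with no filter, with a mean of at least 100 and with the methods' t-test, and 0 to 2 when 1 pair was left out. Cct6b has a mean under 100, so that filter leaves it out. The methods' t-test, paired and on linear intensities, called 1 higher gene, Dnajc14 in place of Dnajc1, and 1671 probe sets in all, against 2546 from limma. With no replicate block limma gave 1 higher and 1 lower chaperone gene, Dnajc1 and Cct6b as with the block, and 2082 probe sets. Leaving out 1 pair gave 1551 to 2696 probe sets, and 0 to 1 chaperone genes that met the study's criteria, 0 of them without pair 3. With quantile normalization 25 chaperone genes were positive and 54 negative, against 20 and 59. Single genes were followed for those that the rule for naming picked, not for all 79. Of their 653 values under an alternative, 7 (of Cct6b and Dnajc1) were no longer past that level and 5 (of Cct5, Dnajc14 and Hspe1) came past it. Outside these genes, Dnajb3 came past it, lower, without pair 1. Another 34 of the 653 values, of 22 genes, took the opposite sign, in each case of a gene that was not past that level and lay within 0.28 of no change. The cause of these changes was not tested. An adjusted p under 0.05 was reached by 0 chaperone genes in the alternatives that take 1 probe set per gene. Dim probe sets such as those of Cct6b, Dnajb3, Hsf2 and Dnajc5g lie close to the intensity minimum, where a difference is hard to measure.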
